A study of Mus musculus with 12 samples.

Results

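The 84 genes described here are the autosomal protein-coding genes of GENCODE M21 (mouse genome mm10) whose symbols name a Pax, Lhx, Gata, Tbx, Dlx, Irx, Nkx or Wnt gene, without Tbx3, or a gene of the family of Six3 and Six5, out of 20807 autosomal protein-coding genes in all. The rule uses symbols and no measured value. There were 9 Pax, 8 Lhx, 5 Gata, 11 Tbx, 14 Nkx and 19 Wnt genes, and 6 each of the Dlx, the Irx and the Six3 family genes. The measure was the strand of Okazaki fragments around each transcription start site (TSS), taken as the most upstream annotated start of the gene.

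Pax, Lhx, Dlx, Irx, Nkx and Six3 family genes encode homeodomain or paired-domain transcription factors, Gata genes encode zinc finger factors and Tbx genes T-box factors. They set the identity of tissues in the embryo, and many of them lie in large stretches of DNA with few other genes and have CpG-rich promoters that carry both active and repressive histone marks in pluripotent cells. Wnt genes encode secreted ligands that bind Frizzled receptors and signal through beta-catenin or beta-catenin-independent routes. On the lagging strand DNA is made as Okazaki fragments, so that fragments from forks moving to the right map to the Crick strand and those from forks moving to the left to the Watson strand. A place where forks start more often than they end shows a rise of the Crick share from left to right.

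OK-seq, the sequencing of EdU-labelled Okazaki fragments, was done on mouse embryonic stem cells in the naive state and on epiblast-like cells (EpiLCs), which the labels call formative, obtained by withdrawal of LIF and the inhibitors that hold cells in the naive state. The histone methyltransferases KMT2C and KMT2D place H3K4me1 at enhancers, and the comparison asked how their loss, or the loss of their enzymatic activity, bears on where replication starts. The control line lacked KMT2C and carried a conditional KMT2D allele with CreER, on a mixed C57BL/6 and 129 background. In KMT2C/D dKO cells KMT2D had been deleted from that line as well with 4-hydroxytamoxifen, and in KMT2C/D dCD cells, an R1 line on the 129 background, both proteins were present without catalytic activity. All 3 lines therefore lacked KMT2C or its activity, and no wild-type library is compared here. The dCD line also differed from the control in its strain and origin, and the parts of these differences cannot be told apart.

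Each of the 6 conditions (control, dKO and dCD, each naive and EpiLC) had 2 biological replicates, 12 samples in all, and the authors deposited 1 track per condition in which both are summed. There is thus no error between replicates. Every interval below is a 95% interval from counting reads, which are not counted by molecule, so it covers counting error only and compares libraries rather than conditions. The naive libraries held 3655095 to 4409068 reads and the EpiLC libraries 11407678 to 13601460. A single TSS had a median of 57 reads to its left and 56 to its right in the naive control and 150 and 146 in the EpiLC control, so single promoters are known less precisely in naive cells. Read density around the members was 1.27 to 1.35 times the genome mean. The share of reads on chromosomes 2, 3, 4, 6 and 18 differed between libraries by up to 1.11 times, and its part in the results was not tested. The values without these chromosomes, given below and in the closing section, also leave out the members that lie on them.

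Strand bias is given in percentage points: the share of Crick reads within 25 kb right of a TSS, less the share within 25 kb left of it. For minus-strand genes both the side and the strand swap when read along the gene, so the sign means the same for either orientation. Where a set of genes is described, reads are summed over its TSSs first. Unless another order is named, 3 values of a state are given in the order control, dKO and dCD.

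The promoters of 9 members are shown to let the reader set their sequence beside the values that follow. They are the 3 highest (Lhx8, Lhx6, Tbx18) and the 3 lowest (Tbx10, Six5, Wnt2) by mean strand bias in EpiLCs. These 6 were taken among members whose RefSeq start lies within 300 bases of the TSS used. Irx4, Wnt1 and Wnt10b are shown as members named in the comparisons below. Each line is the 250 bases before the RefSeq start in GRCm38.p6, 5′ to 3′ on the strand of the gene, with each CG pair, the substrate of CpG methylation, in capitals.
Lhx8, chr3:154330561-154330810, minus strand: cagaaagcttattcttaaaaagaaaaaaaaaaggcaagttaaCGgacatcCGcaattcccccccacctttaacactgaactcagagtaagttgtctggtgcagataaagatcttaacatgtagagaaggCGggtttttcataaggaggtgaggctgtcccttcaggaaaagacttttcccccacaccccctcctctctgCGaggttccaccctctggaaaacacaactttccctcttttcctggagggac
Lhx6, chr2:36105409-36105658, minus strand: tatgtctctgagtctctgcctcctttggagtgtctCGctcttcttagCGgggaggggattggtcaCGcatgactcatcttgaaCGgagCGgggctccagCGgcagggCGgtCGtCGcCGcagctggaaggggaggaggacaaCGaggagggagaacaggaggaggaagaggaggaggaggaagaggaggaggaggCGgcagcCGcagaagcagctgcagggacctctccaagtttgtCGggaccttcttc
Tbx18, chr9:87731261-87731510, minus strand: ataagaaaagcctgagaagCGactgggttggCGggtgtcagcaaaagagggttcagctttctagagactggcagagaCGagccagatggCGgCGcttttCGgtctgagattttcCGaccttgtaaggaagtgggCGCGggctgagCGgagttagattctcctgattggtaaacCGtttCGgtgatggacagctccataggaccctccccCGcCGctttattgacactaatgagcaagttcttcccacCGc
Irx4, chr13:73260247-73260496, plus strand: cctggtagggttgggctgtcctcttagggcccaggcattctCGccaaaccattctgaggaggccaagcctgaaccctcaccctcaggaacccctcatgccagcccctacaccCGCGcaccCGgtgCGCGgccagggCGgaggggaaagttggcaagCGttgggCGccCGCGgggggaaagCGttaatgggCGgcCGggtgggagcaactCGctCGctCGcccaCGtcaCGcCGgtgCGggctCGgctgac
Wnt1, chr15:98789607-98789856, plus strand: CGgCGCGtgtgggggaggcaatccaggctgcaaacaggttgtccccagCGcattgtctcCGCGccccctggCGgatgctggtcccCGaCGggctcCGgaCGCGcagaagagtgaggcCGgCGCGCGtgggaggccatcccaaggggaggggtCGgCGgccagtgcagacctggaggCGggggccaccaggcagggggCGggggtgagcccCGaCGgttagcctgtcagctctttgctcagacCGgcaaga
Wnt10b, chr15:98778151-98778400, minus strand: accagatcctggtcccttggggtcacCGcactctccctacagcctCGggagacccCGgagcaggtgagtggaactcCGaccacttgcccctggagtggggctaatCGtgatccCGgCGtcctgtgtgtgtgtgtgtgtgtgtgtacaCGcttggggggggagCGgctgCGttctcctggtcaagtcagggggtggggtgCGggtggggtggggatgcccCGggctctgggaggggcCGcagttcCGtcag
Tbx10, chr19:3992502-3992751, plus strand: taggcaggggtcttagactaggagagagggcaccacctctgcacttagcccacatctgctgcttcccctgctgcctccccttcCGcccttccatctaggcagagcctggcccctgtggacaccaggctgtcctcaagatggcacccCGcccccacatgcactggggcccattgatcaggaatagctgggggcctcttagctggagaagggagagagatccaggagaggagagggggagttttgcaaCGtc
Six5, chr7:19094294-19094543, plus strand: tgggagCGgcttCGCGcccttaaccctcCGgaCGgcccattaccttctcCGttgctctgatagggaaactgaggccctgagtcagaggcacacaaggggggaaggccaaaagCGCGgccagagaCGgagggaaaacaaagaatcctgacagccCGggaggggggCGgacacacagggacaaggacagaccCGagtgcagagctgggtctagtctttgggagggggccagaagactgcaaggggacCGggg
Wnt2, chr6:18030446-18030695, minus strand: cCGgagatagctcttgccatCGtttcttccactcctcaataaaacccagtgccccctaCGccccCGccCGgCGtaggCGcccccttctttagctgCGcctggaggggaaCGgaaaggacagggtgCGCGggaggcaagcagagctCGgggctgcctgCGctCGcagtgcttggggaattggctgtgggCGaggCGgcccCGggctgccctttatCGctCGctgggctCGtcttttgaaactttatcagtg
The Lhx8 promoter held 4 CG pairs and that of Wnt2 20, although Lhx8 was among the highest and Wnt2 the lowest member by the mean of the 3 EpiLC libraries. A count of 4 or more is found in 62.2% and one of 20 or more in 17.9% of the 32851 RefSeq promoters of this length, and 92.1% hold at least 1 CG pair. RefSeq promoters were matched for 61 of the 84 members, with a median of 19 CG pairs (range 3 to 48), against 6 over the whole table. The RefSeq start lay within 300 bases of the TSS used for 49 of the 61. It lay further off for others, such as Six3 (7226 bases) and Lhx9 (6133 bases). Over the 84 members the number of CpG dinucleotides within 500 bases of the TSS had a correlation near 0 with the mean strand bias in EpiLCs (Pearson r = -0.0471, Spearman rho = -0.0427, a description across 84 genes).

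Strand bias summed over the 84 members was above 0 in every library. It was 7.73 (5.77 to 9.70) in the naive control, 9.36 (7.23 to 11.5) in naive dKO and 6.16 (4.02 to 8.31) in naive dCD cells. In EpiLCs it was 10.1 (8.87 to 11.3) in the control, 7.33 (6.18 to 8.48) in dKO and 10.1 (8.99 to 11.3) in dCD cells. The EpiLC dKO library was thus the lowest of the EpiLC libraries, while the naive libraries overlapped within their intervals. The Crick share at the members went from 43.8% on the left to 53.9% on the right in the EpiLC control.

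At all 20723 other autosomal TSSs strand bias was 6.73, 6.53 and 7.18 in the naive and 4.43, 4.79 and 5.18 in the EpiLC libraries. The members minus the other TSSs came to 1.001 (-0.968 to 2.97), 2.83 (0.696 to 4.96) and -1.02 (-3.17 to 1.13) in naive control, dKO and dCD cells. The interval excluded 0 in naive dKO cells alone. In EpiLCs the same difference was 5.67 (4.44 to 6.90), 2.54 (1.38 to 3.69) and 4.96 (3.81 to 6.11), above 0 in all 3 libraries. Within 10 kb of the TSS in place of 25 kb, the members minus other TSSs were -0.0168 (-1.86 to 1.82) in EpiLC dKO, 0.942 (-0.904 to 2.79) in EpiLC dCD and -0.710 (-4.07 to 2.65) in naive dKO cells, so these 3 calls rest on reads beyond 10 kb. The naive dKO call was also lost with no other protein-coding TSS within 25 kb (1.10, -1.49 to 3.69) and without chromosomes 2, 3, 4, 6 and 18 (1.95, -0.648 to 4.54). These intervals leave out the spread between genes, which was wide (SD 9.12 percentage points over the members in the EpiLC control).

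**Figure D1:**
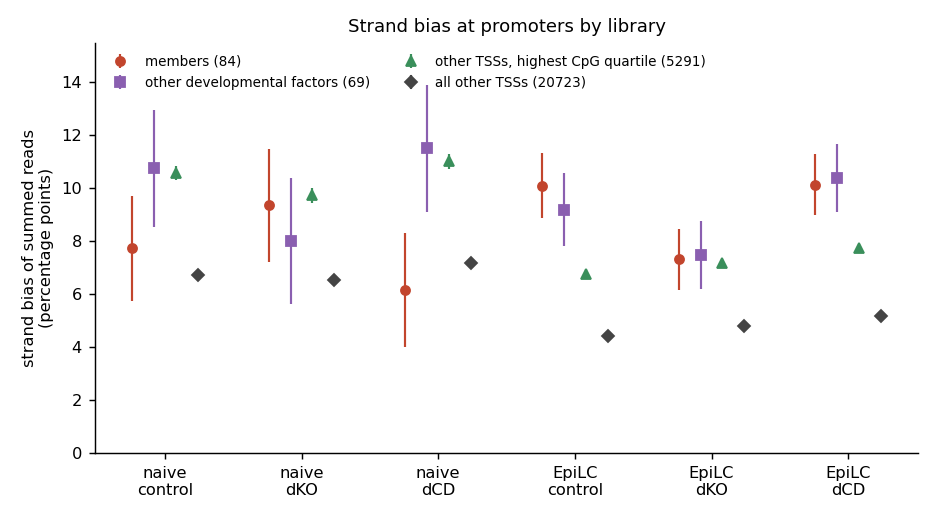
Strand bias of summed reads (percentage points) in each of the 6 libraries for the 84 members, 69 other developmental transcription factors, the 5291 other TSSs with the most CpG dinucleotides and all 20723 other TSSs, with bars for the 95% counting interval. The members lie near or below the CpG-rich TSSs in naive libraries (6.16 to 9.36 against 9.74 to 11.02) and above them in the EpiLC control and dCD libraries (10.1 and 10.1 against 6.79 and 7.75).

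TSSs with many CpG dinucleotides had a higher strand bias than others in every library, so the members were also set against the TSSs with the most of them, and then class by class. At the 5291 other TSSs in the highest quartile (70 or more CpG dinucleotides within 500 bases) strand bias was 10.6, 9.74 and 11.02 in the naive and 6.79, 7.17 and 7.75 in the EpiLC libraries. The members minus these came to -2.85 (-4.84 to -0.869) in naive control and -4.86 (-7.02 to -2.69) in naive dCD cells, and to -0.382 (-2.53 to 1.77) in naive dKO cells. In EpiLCs they were higher than these by 3.31 (2.07 to 4.56) in control and 2.39 (1.23 to 3.55) in dCD cells, and the difference was 0.157 (-1.01 to 1.32) in dKO cells.

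Only 26 of the 84 members lay in that highest quartile themselves, 35 lay in the third and 23 below the median. The 23 members below the median had a strand bias of 9.18, 7.02 and 8.90 in the EpiLC libraries, against 2.47, 2.87 and 3.06 at other TSSs of that class. This class holds every TSS with fewer than 43 CpG dinucleotides, and their number was not matched inside it. The first quartile of this number was 38.75 over all members and 12 over all other TSSs. How far the gap reflects CpG number was not tested. The 35 members of the third quartile had 11.95, 8.34 and 11.5 against 5.25, 5.51 and 6.11. In the highest quartile the 26 members had 8.62, 6.35 and 9.60 against 6.79, 7.17 and 7.75. The interval of these 26 members included the value of other TSSs of the class in each EpiLC library, and was 8.62 (6.39 to 10.8), 6.35 (4.26 to 8.44) and 9.60 (7.54 to 11.7). In the naive libraries the members below the median had 7.69, 9.04 and 6.06 against 3.33, 3.64 and 3.71. The value of the class lay outside the members' interval in control and dKO cells. The third quartile had 8.41, 11.9 and 7.89 against 8.35, 8.02 and 8.98, with the value of the class below the members' interval in dKO cells. The highest quartile had 6.94, 6.19 and 4.07 against 10.6, 9.74 and 11.02, where the value of the class lay above the members' interval in control and dCD cells. The gaps of the 3 classes were not tested against each other.

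Base composition moved with the measure too. Bins of 1 kb with more T than A held more Crick reads, and the slope of this relation was 1.43 to 1.52 in the naive and 1.03 to 1.21 in the EpiLC libraries (a change in Crick share for an equal change in T minus A content). Over the 84 members the step in T minus A content from the left to the right 25 kb was related to the mean strand bias in EpiLCs (Pearson r = 0.638) and in naive cells (r = 0.534), described across genes that share the libraries. The mean step was 1.99 percentage points at members and 2.01 at the other TSSs. With this part taken off, the members had a strand bias of 5.20, 6.89 and 3.59 in the naive and 8.07, 5.32 and 7.68 in the EpiLC libraries, against 3.53, 3.45 and 3.93 in the naive and 2.29, 2.37 and 2.66 in the EpiLC libraries at other TSSs. The summed strand bias of the members and their difference from other TSSs then kept their direction and their calls in all 6 libraries.

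**Figure D2:**
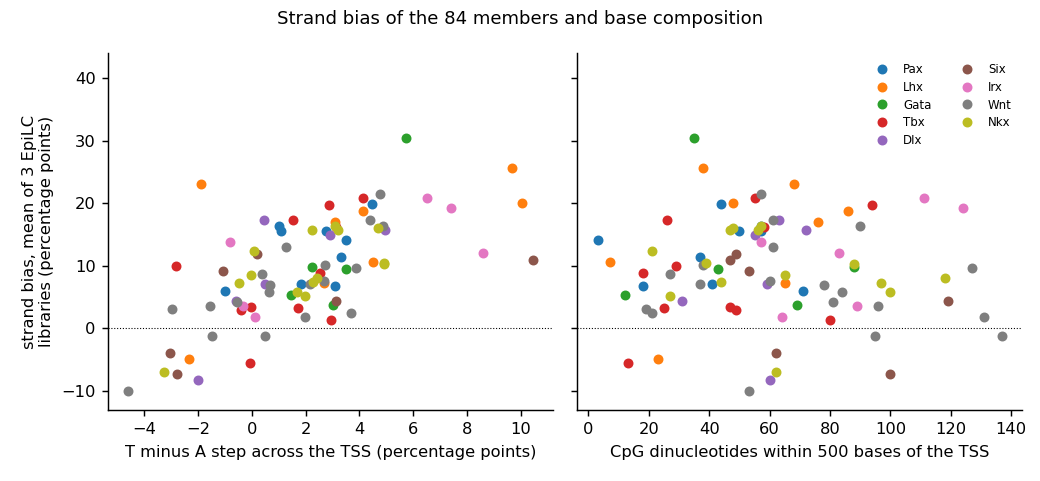
Mean strand bias of each of the 84 members over the 3 EpiLC libraries (percentage points) against the T minus A step across its TSS (left, percentage points) and against the number of CpG dinucleotides within 500 bases (right), colored by family. Strand bias goes up with the T minus A step (r = 0.638) and shows a correlation near 0 with the CpG number (r = -0.0471).

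Along the gene, the share of reads from forks that move with transcription was 43.6% at 25 to 50 kb upstream and 55.4% at 25 to 50 kb downstream in the EpiLC control, a step of 11.8 percentage points. In the first 5 kb on each side it was 45.6% and 52.4%, a step of 6.79. In EpiLC dKO and dCD cells the step was 2.61 and 0.988 within 5 kb and 12.05 and 12.95 at 25 to 50 kb. At other TSSs of the EpiLC control the corresponding values were 3.16 within 5 kb and 5.14 at 25 to 50 kb. Within 5 kb the other TSSs had 3.704 in EpiLC dKO and 3.33 in EpiLC dCD cells, by value above the members. In the naive libraries the members' step within 5 kb was 3.86, 8.16 and 0.317, against 5.42, 5.18 and 4.897 at other TSSs. By value the members thus had the larger step within 5 kb in the EpiLC control and naive dKO libraries only. These differences were not tested. In the EpiLC control the members lay low upstream rather than high downstream close to the TSS. Within 5 kb upstream 45.6% of its reads were codirectional, against 51.0% at other TSSs, and within 5 kb downstream 52.4% against 54.1%. In EpiLC dKO and dCD cells the members lay low on both sides. Upstream they had 48.4% and 47.7% against 51.1% and 51.2%, and downstream 51.0% and 48.7% against 54.8% and 54.6%. At 50 to 100 kb the members still had steps of 9.94, 9.66 and 10.8 in the EpiLC and 7.07, 8.94 and 8.37 in the naive libraries. In the EpiLC control the shares on either side were close to level beyond 5 kb, 44.2% and 55.2% at 5 to 25 kb and 44.9% and 54.9% at 50 to 100 kb.

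**Figure D3:**
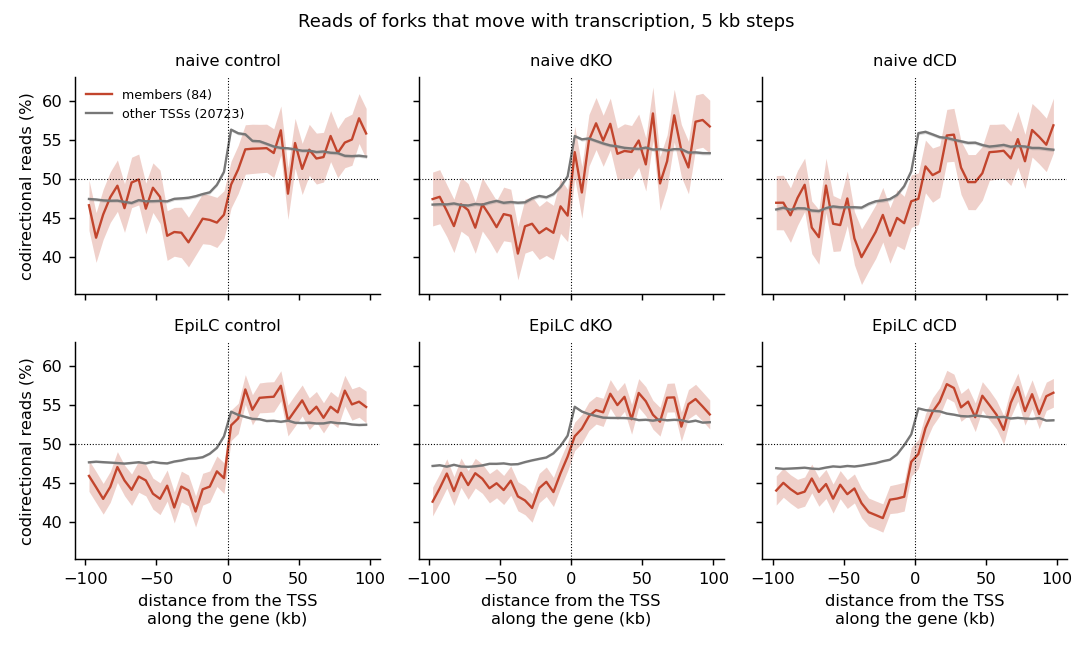
Share of reads from forks that move with transcription (%) against the distance from the TSS along the gene (kb, steps of 5 kb) in each library, for the 84 members and the 20723 other TSSs, with 95% counting intervals shaded. At other TSSs the share peaks just downstream of the TSS, while at the members it goes from 43.6% at 25 to 50 kb upstream to 55.4% at 25 to 50 kb downstream in the EpiLC control.

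Single members were called where the interval of their own strand bias lay above 0. In the naive libraries 19, 21 and 15 of 84 members were called, 22.6%, 25% and 17.9%, against 20.0%, 17.9% and 19.5% of the 19810 autosomal TSSs that had 10 or more reads both left and right in each library. Of these 3 shares, that in naive dKO cells lies furthest from its background. In the EpiLC libraries 36, 31 and 43 members were called, 42.9%, 36.9% and 51.2%, against 21.1%, 25.3% and 27.0% of all TSSs tested. The median member had a strand bias of 10.3, 8.28 and 11.1 in the EpiLC libraries, and the median of all TSSs tested was 4.19, 4.66 and 4.80. In naive libraries these medians were 6.53, 8.98 and 6.35 against 6.30, 6.30 and 6.58. All 84 members passed the minimum of reads.

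Gata3, Pax6 and Tbx15 were called above 0 in all 6 libraries, 3.57% of the members against 2.84% of all TSSs tested. In all 3 EpiLC libraries 20 members were called, 23.8% against 9.12%, and 25 were called in no library, 29.8% against 46.8%. Of the values themselves, 42 members had one above 0 in every library, and Dlx3 had none above 0. The order of the members was similar between libraries, with Pearson r of 0.504 to 0.679 over the 84 genes for any pair and 0.786 between the means of naive and EpiLC libraries.

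**Figure D4:**
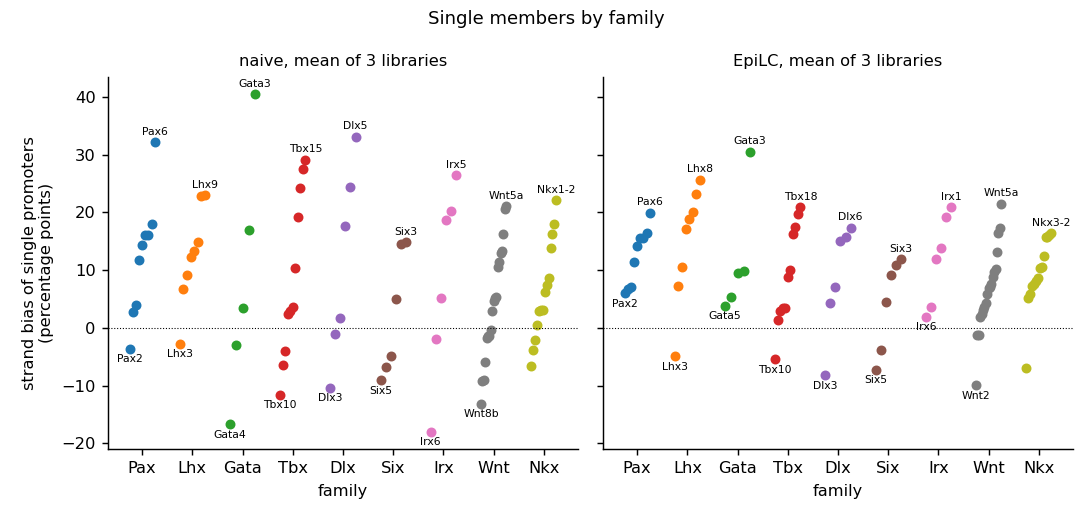
Mean strand bias of each member over the 3 naive (left) and the 3 EpiLC libraries (right), in percentage points, by family, with the highest member of each family named, and the lowest of each but the Nkx genes. Gata3 is the highest member in both states (40.5 and 30.5), and in EpiLCs most members lie above 0.

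Among the Gata genes, Gata3 (chr2:9857078-9890034, minus strand), which directs T helper 2, trophectoderm and mammary luminal fates, had the highest mean strand bias of all members in both states, 46.97, 39.3 and 35.2 in the naive and 37.7, 29.2 and 24.6 in the EpiLC libraries. Its annotated TSS lies 494 bases from that of the neighbouring gene 9230102O04Rik, so the reads around it belong to both. The RefSeq start of Gata3 lies 11434 bases from the TSS used, so this value is not centred on it. Gata4, a regulator of heart and primitive endoderm, had -22.1, -14.5 and -13.5 in the naive and 4.30, -0.332 and 11.96 in the EpiLC libraries, below 0 in all naive libraries. Gata4 rose from naive to EpiLC by 26.4 (3.76 to 47.4) in control and 25.5 (2.40 to 47.1) in dCD cells. Gata5, a cardiac and endodermal factor, had the lowest mean of the family over the 3 EpiLC libraries, with 7.14, 0.518 and 3.67.

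Over the 9 Pax genes strand bias was 11.9, 12.7 and 14.98 in the naive and 13.99, 8.56 and 15.4 in the EpiLC libraries. Pax6, which directs eye and forebrain development, had 35.99, 22.6 and 37.7 in the naive and 26.4, 18.4 and 14.9 in the EpiLC libraries, each with an interval above 0. Pax6 fell from naive to EpiLC (-22.8, -40.99 to -2.32) in dCD cells. Pax2, needed for the kidney and the midbrain-hindbrain boundary, had the lowest mean of the family over the EpiLC libraries, with 8.33, 2.86 and 6.67, and Pax8, a thyroid and kidney factor, rose from naive to EpiLC by 26.7 (5.83 to 47.1) in dCD cells. The Pax family as a whole was lower in EpiLC dKO than in EpiLC control cells (-5.43, -10.6 to -0.221).

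The 8 Lhx genes encode LIM homeodomain factors and had 13.6, 13.9 and 9.42 in the naive and 13.5, 11.9 and 15.8 in the EpiLC libraries. Lhx8, a factor of cholinergic neurons, had 24.8, 34.4 and 9.54 in the naive and 26.04, 22.8 and 28.05 in the EpiLC libraries, and Lhx6, a factor of cortical interneurons, rose from naive to EpiLC by 23.2 (0.599 to 45.4) in control cells. Lhx3, a pituitary and motor neuron factor, lay at -6.44, -6.67 and -1.74 in EpiLCs. Lhx1, which is needed for head formation, had 36.9, 5.76 and -5.81 in the naive and 13.7, 20.3 and 17.2 in the EpiLC libraries, so the naive control was the highest library. In naive cells Lhx1 was lower than in control cells, with a difference of -31.2 (-56.02 to -5.06) in dKO and -42.7 (-67.2 to -16.1) in dCD cells. In the control it fell from naive to EpiLC (-23.3, -41.5 to -3.01), and in dCD cells it rose by 23.05 (0.267 to 45.2). Lhx9, a gonad and limb factor, had 8.16, 43.7 and 16.99 in the naive and 28.98, 9.87 and 21.2 in the EpiLC libraries, with the naive dKO library the highest, and its right window held only 29 reads in the naive control.

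The Tbx family had 6.38, 11.7 and 4.96 in the naive and 8.53, 7.86 and 8.94 in the EpiLC libraries. Tbx18, a factor of the heart's sinus horn and of somites, had 26.5, 36.8 and 19.2 in the naive and 21.04, 20.2 and 21.5 in the EpiLC libraries, and Tbx10 had the lowest mean of the family over the EpiLC libraries, with 2.01, -9.18 and -9.18. Tbx19, which drives pituitary corticotroph fate, had 12.2, 11.3 and -16.3 in the naive and 7.09, 9.84 and 9.45 in the EpiLC libraries. Only its naive dCD value lay below 0, lower than control (-28.5, -51.2 to -4.25), and it rose from there to EpiLC by 25.8 (4.91 to 45.4).

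The 6 Dlx genes, which pattern the jaws and ventral forebrain, lie as pairs whose TSSs are 18641 to 26144 bases apart, so the windows of a pair share reads. As a family they had 10.1, 14.2 and 8.41 in the naive and 10.4, 4.79 and 10.4 in the EpiLC libraries. Dlx6 had 18.1, 37.4 and 17.5 in the naive and 21.2, 8.67 and 22.2 in the EpiLC libraries, and it fell from naive to EpiLC (-28.7, -47.6 to -6.87) in dKO cells. Its neighbour Dlx5 fell from naive to EpiLC (-22.2, -39.3 to -2.39) in dCD cells. Dlx1 was lower in EpiLC dCD than in EpiLC control cells (-16.1, -30.1 to -1.76). Dlx3, a factor of skin and placenta, had -9.86, -10.2 and -11.3 in the naive and -8.77, -6.24 and -9.57 in the EpiLC libraries, all below 0 with intervals that reach above it. The Dlx family was lower in EpiLC dKO than in EpiLC control cells (-5.61, -10.96 to -0.255), and in dKO cells it fell from naive to EpiLC (-9.36, -17.01 to -1.71).

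The 6 genes of the Six3 family, relatives of the fly eye gene sine oculis, had together the lowest strand bias of the families in EpiLCs, 3.41, 4.36 and 5.92, and 6.57, 1.46 and -0.894 in naive cells. Six3, a forebrain and eye factor, had 19.9, 3.63 and 20.9 in the naive and 10.5, 22.1 and 3.06 in the EpiLC libraries. Six5, which lies beside Dmpk, had -3.73, -9.58 and -13.9 in the naive and -5.79, -17.5 and 1.49 in the EpiLC libraries, with the EpiLC dKO interval below 0. No gene of this family was called in any of the 7 comparisons.

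The 14 Nkx genes had 6.02, 9.91 and 4.99 in the naive and 8.97, 8.86 and 9.61 in the EpiLC libraries. Nkx3-2, a skeletal and spleen factor, had -10.4, 16.3 and 12.6 in the naive and 17.7, 17.4 and 13.9 in the EpiLC libraries, so only the naive control lay below 0, and it rose from naive to EpiLC in control cells by 28.1 (6.06 to 48.97). Nkx6-2, which acts in ventral neural progenitors and oligodendrocytes, was lower in dCD than in control cells in both states, with differences of -26.6 (-48.5 to -2.38) and -16.6 (-31.6 to -1.27). Nkx6-1, a pancreatic beta cell and motor neuron factor, rose from naive to EpiLC by 25.3 (1.66 to 47.02) in dCD cells.

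The Irx genes form clusters on chromosomes 13 (Irx1, Irx2 and Irx4) and 8 (Irx3, Irx5 and Irx6) and pattern the neural plate, heart and limb. Their summed strand bias, -1.27, 17.7 and 9.48 in the naive and 12.7, 9.52 and 12.96 in the EpiLC libraries, was the only family value with a naive control below 0. It rested on 277 reads to the left and 290 to the right in the naive control, and on 777 and 759 in the EpiLC control. Irx4 had -15.3, 20.7 and 10.1 in the naive and -0.619, 9.15 and 2.23 in the EpiLC libraries, Irx5 had 4.46, 42.6 and 32.1 in the naive and 20.2, 5.20 and 10.6 in the EpiLC libraries and Irx1 had 5.32, 40.4 and 10.3 in the naive and 17.8, 18.97 and 25.9 in the EpiLC libraries. In each of these 3 genes naive dKO was the highest naive library, and its difference from the naive control was 36.01 (11.4 to 58.2), 38.1 (10.3 to 63.3) and 35.1 (6.14 to 60.9). Irx4 was also higher in naive dCD than in naive control cells, by 25.4 (0.416 to 48.99). Irx2 had values in the other order, 26.5 in the naive control and 13.8 in naive dKO cells, as had Irx3, -3.20 and -6.67, and neither difference was beyond counting error. Irx6 had -22.2, -15.8 and -16.2 in the naive and 3.77, -0.368 and 2.19 in the EpiLC libraries, below 0 in all naive libraries.

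As a family, Irx genes were higher in naive dKO than in naive control cells by 18.99 (6.97 to 31.02), and 10.8 (-0.968 to 22.5) separated naive dCD from control. From naive to EpiLC they rose by 13.97 (4.40 to 23.5) in control cells, against -8.21 (-18.3 to 1.84) in dKO and 3.48 (-6.18 to 13.1) in dCD cells. The difference between the dKO and control changes was -22.2 (-36.05 to -8.30), and that between the dCD and control changes was -10.5 (-24.1 to 3.10). Irx was the single family of 9 in which the dKO change from naive to EpiLC differed from that of the control.

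The 19 Wnt genes had 6.77, 3.41 and 2.77 in the naive and 8.36, 4.52 and 6.40 in the EpiLC libraries. Wnt5a, the main ligand of beta-catenin-independent signalling, had 26.6, 20.1 and 16.5 in the naive and 17.1, 24.03 and 23.4 in the EpiLC libraries, and the highest mean of the family over the EpiLC libraries. Wnt2, a ligand of lung and placental development, had the lowest mean of all members over the EpiLC libraries, with -8.18, -10.5 and -11.2, each with an interval that includes 0. Wnt2b, needed for lung specification with Wnt2, rose from naive to EpiLC by 22.4 (0.248 to 42.997) in control cells, and Wnt8a, a ligand of the early embryonic axis, rose by 31.5 (8.08 to 52.4) in dKO cells.

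Wnt1, which patterns the midbrain, and Wnt10b, a ligand of bone and hair follicle growth, lie back to back with TSSs 11707 bases apart and share most of their windows. Wnt1 had 15.8, 12.3 and 3.53 in the naive and 23.2, 3.13 and 12.8 in the EpiLC libraries, and Wnt10b had 8.85, 4.38 and -4.55 in the naive and 18.7, 4.12 and 0.0611 in the EpiLC libraries. For both, the EpiLC control was the highest library. In EpiLC dKO cells both were lower than in control cells, with differences of -20.1 (-33.99 to -5.75) for Wnt1 and -14.6 (-28.7 to -0.124) for Wnt10b, and in EpiLC dCD cells Wnt10b was lower (-18.6, -33.001 to -3.81). Wnt6 and Wnt10a, which lie 19624 bases apart on chromosome 1, were each called in dCD cells. Wnt6 was lower in EpiLC dCD than in EpiLC control cells (-17.3, -31.4 to -2.79), and Wnt10a was lower in naive dCD than in naive control cells (-25.3, -49.6 to -0.350) and rose from naive to EpiLC by 22.4 (2.12 to 42.3) in dCD cells.

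As a background for the ligands, 52 other genes of the Wnt pathway (receptors, co-receptors, Dishevelled proteins, the destruction complex, TCF/LEF factors and secreted antagonists) had 8.17, 7.14 and 8.35 in the naive and 5.80, 6.83 and 5.59 in the EpiLC libraries. In the EpiLC control, 14 of them were called above 0, 26.9%, near the background of 21.1%. The 84 members, of which 65 are not Wnt genes, minus this list came to 4.30 (2.29 to 6.32), 0.504 (-1.38 to 2.38) and 4.55 (2.68 to 6.43) in the EpiLC libraries and to -0.441 (-3.63 to 2.75), 2.22 (-1.22 to 5.66) and -2.19 (-5.67 to 1.29) in the naive libraries. The interval excluded 0 in EpiLC control and dCD cells. The 19 ligands by themselves were not tested against the list. By contrast, 69 other developmental transcription factors, such as Sox, Fox, Otx and Hes genes, had 10.8, 8.02 and 11.5 in the naive and 9.19, 7.49 and 10.4 in the EpiLC libraries. In EpiLCs the members minus these came to 0.907 (-0.935 to 2.75), -0.160 (-1.89 to 1.57) and -0.260 (-1.98 to 1.47), no difference beyond counting error, and 31, 25 and 31 of the 69 were called, 44.9%, 36.2% and 44.9%. In naive cells the members were lower than this list in control and dCD cells, with differences of -3.02 (-5.97 to -0.0696) and -5.36 (-8.58 to -2.14). Hox genes (39) had 8.25, 6.22 and 4.78 in the naive and 6.79, 5.25 and 8.90 in the EpiLC libraries, and ribosomal protein genes (72), which every cell transcribes, had 13.8, 8.13 and 12.7 in the naive and 8.14, 5.93 and 10.2 in the EpiLC libraries.

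From the naive to the EpiLC state, strand bias at other TSSs fell in every line, with changes of -2.30 (-2.46 to -2.14) in control, -1.74 (-1.90 to -1.58) in dKO and -1.999 (-2.16 to -1.84) in dCD cells. At the members it rose by 2.37 (0.0498 to 4.69) in control and by 3.98 (1.55 to 6.41) in dCD cells, and the value in dKO cells was -2.03 (-4.45 to 0.390). The rise in the control line was not beyond counting error with windows of 10 kb (1.62, -2.02 to 5.25), after thinning to the smallest library (2.05, -1.01 to 5.11), without the Wnt genes (2.51, -0.158 to 5.19) or without the Irx genes (1.63, -0.763 to 4.01), nor when members within 50 kb of each other were left out (2.15, -0.489 to 4.80). The rise in dCD cells was 1.21 (-2.62 to 5.05) with windows of 10 kb, and without the Wnt genes the members fell in dKO cells (-2.99, -5.75 to -0.228). Relative to the other TSSs of the same library, the members changed by 4.67 (2.34 to 6.99) in control, -0.291 (-2.72 to 2.14) in dKO and 5.98 (3.54 to 8.42) in dCD cells, a measure added after the values were seen. In dCD cells Hox genes rose as well, by 4.12 (1.02 to 7.21), and the change at the members minus theirs was -0.138 (-4.09 to 3.82). In control cells the change was -1.46 (-4.41 to 1.498) at Hox genes, -1.56 (-4.15 to 1.04) at the other developmental transcription factors, -5.68 (-8.18 to -3.18) at ribosomal protein genes and -2.38 (-5.35 to 0.6005) at Wnt pathway genes. The change at the members minus these came to 3.82 (0.0634 to 7.59), 3.93 (0.449 to 7.41), 8.05 (4.64 to 11.5) and 4.74 (0.969 to 8.52). In dCD cells the members minus the last 3 lists changed by 5.10 (1.45 to 8.75), 6.55 (2.96 to 10.1) and 6.74 (2.79 to 10.7). In dKO cells the members minus each of the 4 lists had an interval that included 0. The dKO change at the members minus that of the control was -4.40 (-7.75 to -1.05), and for dCD this difference was 1.61 (-1.75 to 4.97). The dKO difference was not beyond counting error with windows of 10 kb (-2.51, -7.78 to 2.76), after thinning to the smallest library (-4.06, -8.42 to 0.295), without the Irx genes (-3.28, -6.73 to 0.177), or at members with no other member within 50 kb (-2.89, -6.71 to 0.919) or no other protein-coding TSS within 25 kb (-3.15, -7.22 to 0.927).

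Few single members were called between states. In control cells 4 members rose (4.76%, against 2.62% of all TSSs tested) and 1 fell (1.19%, against 5.69%). In dKO cells 1 rose (1.19%, against 2.84%) and 4 fell (4.76%, against 4.79%). In dCD cells 6 rose (7.14%, against 2.70%) and 2 fell (2.38%, against 5.29%). By value alone, 44, 39 and 54 of the 84 members were higher in EpiLCs in control, dKO and dCD cells, 52.4%, 46.4% and 64.3%, against 43.6%, 44.3% and 44.4% of all TSSs tested.

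In the EpiLC state the members were lower in dKO than in control cells (-2.77, -4.46 to -1.08), while other TSSs were higher by 0.361 (0.247 to 0.474). The members minus other TSSs changed (-3.13, -4.82 to -1.44). Ribosomal protein genes were lower in EpiLC dKO cells too, -2.21 (-4.05 to -0.378), and the values were -1.70 (-3.58 to 0.178) at the other developmental transcription factors and -1.54 (-3.67 to 0.590) at Hox genes. The change at the members minus that of these 3 lists was -0.557 (-3.05 to 1.94), -1.07 (-3.59 to 1.46) and -1.23 (-3.95 to 1.49), so a difference from them was not detectable. Against Wnt pathway genes the same difference was -3.80 (-6.56 to -1.04). Against other TSSs in the highest quartile of CpG number it was -3.16 (-4.86 to -1.45), so both intervals excluded 0. In dCD cells the difference from control at the members was 0.0391 (-1.64 to 1.72). The value of 8 of the 9 families was lower in EpiLC dKO than in EpiLC control cells, and the interval excluded 0 for Gata, -7.09 (-13.9 to -0.235), Pax, Dlx and Wnt, -3.84 (-7.32 to -0.365). The exception was the Six3 family, with 0.954 (-5.46 to 7.37).

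By value, the difference between EpiLC dKO and control was larger at members that lie close together. The 16 members that share windows with another member, in 8 pairs (among them Wnt6 and Wnt10a, Dlx1 and Dlx2, Dlx5 and Dlx6, Wnt3a and Wnt9a, Dlx3 and Dlx4, Wnt9b and Wnt3, and Wnt10b and Wnt1), had 11.2, 3.48 and 9.02 in the EpiLC libraries, a dKO difference of -7.72 (-11.2 to -4.21). The other 68 had 9.83, 8.30 and 10.4, a difference of -1.53 (-3.45 to 0.385). The paired members were split off by position, and whether the 2 differences differ was not tested. The call was also lost with windows of 10 kb (-2.66, -5.33 to 0.00838), after thinning to the smallest library (-2.93, -5.999 to 0.146), without chromosomes 2, 3, 4, 6 and 18 (-2.03, -4.09 to 0.0302) and at the 59 members with no other protein-coding TSS within 25 kb (-1.41, -3.45 to 0.640), all with the same direction, and windows of 50 kb gave the smallest value, -1.28 (-2.52 to -0.0295).

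**Figure D5:**
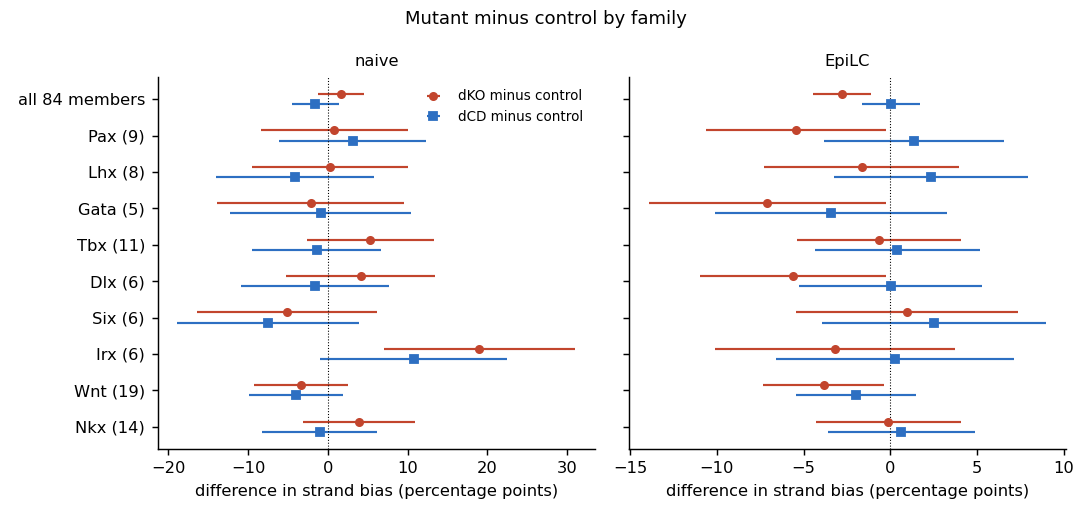
Mutant minus control strand bias (percentage points) in naive cells (left) and EpiLCs (right) for all 84 members and each family, with the number of genes in parentheses and bars for the 95% counting interval, on a wider axis for naive cells. The Irx family stands out in naive dKO cells (18.99), and in EpiLCs 8 of 9 dKO values lie below 0.

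In naive cells the difference from control at the members was 1.63 (-1.27 to 4.53) in dKO and -1.57 (-4.48 to 1.34) in dCD cells, neither beyond counting error. Ribosomal protein genes were lower in naive dKO cells (-5.69, -8.76 to -2.63). The dKO difference at the members minus theirs was 7.32 (3.11 to 11.5), and minus that of the other developmental transcription factors 4.36 (0.0182 to 8.71). Against Hox genes it was 3.66 (-1.10 to 8.41) and against Wnt pathway genes 2.66 (-2.03 to 7.35). Relative to the spread of fork direction along the genome (the SD between bins of 50 kb in their share of Crick reads, which was 16.5 in naive dCD and 12.6 in naive control cells, 12.3 in EpiLC dCD and 9.71 in EpiLC control cells), the dCD values of all TSSs move down. After scaling to the control of the state, dCD minus control was -3.03 (-5.59 to -0.476) at the members and -1.25 (-1.42 to -1.08) at other TSSs in naive cells, and -2.07 (-3.60 to -0.538) and -0.325 (-0.427 to -0.222) in EpiLCs. The members relative to other TSSs came to -1.78 (-4.34 to 0.782) in naive cells and -1.74 (-3.28 to -0.210) in EpiLCs on this scale, which was added after the values were seen.

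Few single members were called between lines. In naive dKO cells 5 members were higher than control (Irx1, Irx4, Irx5 and Lhx9 among them, 5.95%, against 3.35% of all TSSs tested) and Lhx1 was lower (1.19%, against 3.48%). In naive dCD cells Irx4 was higher (1.19%, against 3.45%) and Lhx1, Nkx6-2, Tbx19 and Wnt10a were lower (4.76%, against 2.90%). In EpiLC dKO cells no member was higher by this interval, against 3.34% of all TSSs tested, and Wnt1 and Wnt10b were lower (2.38%, against 2.84%). In EpiLC dCD cells none was higher, against 3.78%, and Dlx1, Nkx6-2, Wnt10b and Wnt6 were lower (4.76%, against 2.92%). Lhx9 in naive dKO cells exceeded the control by 35.6 (4.26 to 62.6) and fell from there to EpiLC (-33.9, -55.8 to -6.91), and Irx5 fell from naive to EpiLC (-37.4, -56.6 to -14.4) in dKO cells.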

How the data were processed

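Per the study's methods, the authors aligned OK-seq reads to mm10 with bowtie2 (the submitters' processing notes list hg19 and mm10 without their roles) and deposited the density of Watson and of Crick reads as a signal per bp in 2725511 bins of 1 kb, with both replicates of a condition summed. All values were whole multiples of 0.001 (largest deviation 0) and were turned into whole reads. Each position was read as a bin end: this placed 0 reads in the 74135 bins made of N only, and reading it as a bin start placed 3045 there. In all, 675 bins with over 10 times the median count of any library were left out, 1 of them in member windows. Summed strand bias has a standard error in which a read used in several windows counts once with its weight. Single TSSs have Newcombe intervals from Wilson intervals. A call is a 95% interval without 0, and no p-value was computed. CpG and T minus A content came from GRCm38.p6, and promoters from RefSeq. For the T minus A part, the Crick share of each bin relative to 10 neighbouring bins on each side, without the nearest 2, was fitted on its T minus A content. Named genes were the highest and lowest of each family in EpiLCs and the members called in a comparison (the 5 largest). Pax6, Wnt10a and Dlx5 between states in dCD cells, Lhx1 in naive dKO cells, Irx2, Irx3 and Tbx15 were added after their values were seen. Some single genes that this rule names are not reported here. The members and lists were chosen with earlier results of these data known. The procedure was tested on simulated strands. Python 3.11.15, numpy 2.4.6 and pandas 2.3.3 were used.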

Additional observations from a re-analysis of the deposited data

Results flagged for a closer look

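The change in strand bias from naive to EpiLC at the 84 members differed between the lines: the change in dKO cells minus that in control cells was -4.40 (-7.75 to -1.05) percentage points (95% counting interval in parentheses). It was 2.37 in control and -2.03 in dKO cells. The interval included 0 under 5 of 14 alternatives: windows of 10 kb (-2.51), thinning to the smallest library (-4.06), no other member within 50 kb (-2.89), no other protein-coding TSS within 25 kb (-3.15) and without Irx genes (-3.28). The measure was added after the values were seen, each value is 1 pooled library, and the spread between replicates was not measured.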

How the results depend on the processing

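No paired analysis was possible because both replicates of a condition are summed in 1 track, and leaving out a replicate could not be run for the same reason. Under 14 alternatives the members' summed strand bias stayed above 0 in every library, and in the EpiLC control the members stayed above other TSSs (3.05 to 6.18). The values below changed sign or gained or lost an interval without 0. They are percentage points, and "relative to other TSSs" means members minus other TSSs. With windows of 10 kb, the members relative to other TSSs were -0.953, -0.710, -0.0168 and 0.942 in naive control, naive dKO, EpiLC dKO and EpiLC dCD cells; dKO minus control was -0.152 in naive cells and -2.66 in EpiLCs, EpiLC dCD minus control -1.87, EpiLC minus naive 1.62 in control and 1.21 in dCD cells, and relative to other TSSs 0.693 in dKO and 3.30 in dCD cells. The change from naive to EpiLC minus that of the control was then -2.51 for dKO and -0.403 for dCD. With 50 kb, naive control relative to other TSSs was 1.94 and the dKO change relative to other TSSs 1.22. EpiLC dCD minus control was -0.387 without the T minus A part, -2.07 after division by the amplitude, -2.04 with both (chosen after seeing the data), -0.809 thinned to the smallest library and -0.155 without chromosomes 2, 3, 4, 6 and 18. Naive dCD minus control was -3.03 after division by the amplitude and -2.64 with both, and the dKO change relative to other TSSs 0.334 and 0.128. Thinned, EpiLC dKO minus control was -2.93, EpiLC minus naive control 2.05 and the dKO change minus that of the control -4.06. With no other member within 50 kb, these 3 were -1.53, 2.15 and -2.89, and the dKO change relative to other TSSs 0.998. With no other protein-coding TSS within 25 kb, naive control and dKO relative to other TSSs were -0.894 and 1.10, EpiLC dKO minus control -1.41, the dKO change relative to other TSSs 1.61 and the dKO change minus that of the control -3.15. Without the 5 chromosomes, naive control, dKO and dCD relative to other TSSs were -0.507, 1.95 and -3.76, EpiLC dKO minus control -2.03 and the dKO change relative to other TSSs 0.835. Without Wnt genes, naive dCD relative to other TSSs was 0.196, EpiLC minus naive 2.51 in control and -2.99 in dKO cells. Without Irx genes (chosen after seeing the data), EpiLC minus naive control was 1.63, the dKO change relative to other TSSs 0.0880 and the dKO change minus that of the control -3.28. The call ended for EpiLC dKO minus control under 5 alternatives, for EpiLC minus naive in the control under 5, for the dKO change minus that of the control under 5 and for naive dKO relative to other TSSs under 3. The cause was not tested. Counting error at the depth of the naive libraries leaves most single members undecided.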
